A study of Homo sapiens with 2 samples.

Results

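The creatine system of A549, an established cell line from a human lung adenocarcinoma, was examined through 8 genes out of the 58302 listed. They were chosen by symbol: the creatine kinase genes CKB, CKM, CKMT1A, CKMT1B and CKMT2, the creatine synthesis genes GATM and GAMT, and the creatine transporter gene SLC6A8. RNA-seq compared 1 library of A549 cells labelled as the overexpression control with 1 library labelled as overexpressing PGC-1α, the coactivator encoded by PPARGC1A. Both cultures grew in F12K medium with serum, and the labels name no vector, promoter, clone or time after gene transfer. The series title places the comparison in the study of lung cancer cell proliferation. The 8 genes were picked with results of these 2 libraries in view, so their values are a description, and with 1 library per group no difference has a replicate check or a p-value.

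Creatine kinases move a phosphate group reversibly between ATP and creatine, which lets a cell buffer ATP and carry high-energy phosphate from mitochondria to sites of use. Cytosolic kinases, the brain type CKB and the muscle type CKM, work beside mitochondrial kinases, the ubiquitous type encoded by CKMT1A and CKMT1B and the sarcomeric type encoded by CKMT2. Creatine itself is made from arginine and glycine, through a first step by GATM and then a methylation by GAMT. It can also be taken up from outside through SLC6A8. PGC-1α is known in muscle and fat for driving mitochondrial genes, in large part together with the ERR nuclear receptors.

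CKMT1A and CKMT1B lie on the plus strand of chromosome 15 and are near-identical copies, which sets how their counts can be read. The files place CKMT1A at chr15:43692886-43699222 and CKMT1B at chr15:43593054-43604901, and both spans equal those of GENCODE release 29 on GRCh38. Their 1779-base transcripts, each of 10 exons, differ at 4 positions, an identity of 99.8%. Counted from the first base of the transcript, with the CKMT1A base first, these are G1448A and C1478T in the coding sequence and A1679C and T1733C in the 3′ UTR. Both coding differences fall on the last base of a codon, and 0 amino acids differ. The coding stretch printed here, bases 1433 to 1493 of the GENCODE transcripts, holds the only coding bases that tell these transcripts apart, in capitals.
CKMT1A: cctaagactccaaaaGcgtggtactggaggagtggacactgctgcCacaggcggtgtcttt
CKMT1B: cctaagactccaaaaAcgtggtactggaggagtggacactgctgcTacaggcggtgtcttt
Of all 100-base windows of the CKMT1A transcript, 86.3% also occur in a CKMT1B transcript, and 82.8% of 150-base windows do. The sources used here do not state the read length or the handling of reads that match both genes. The sum of the 2 genes is therefore the firmer value, and each gene alone is uncertain.

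Promoter sequence is shown for CKMT1A, which held the longer of the motifs searched for, and for CKB. RefSeq windows on GRCh38.p14, running from 250 bases before to 50 after a listed start, matched 7 of the 8 genes, and GAMT had no match. The windows were searched on both strands for TNAAGGTCA, the site of ERR receptors, and for AGGTCA, the core it contains. TNAAGGTCA occurred in 1 of the 12 windows of the members, a CKMT1A window, and in 0.951% of all 35116 windows. It reads tgaccttga on the gene's strand, starts 77 bases before the RefSeq start, and sits at chr15:43693356-43693364. That place is in intron 1 of the 1779-base CKMT1A transcript and outside the exons of all 8 CKMT1A transcripts. The 250 bases before this start, chr15:43693183-43693432 on the plus strand, carry the motif in capitals.
CKMT1A: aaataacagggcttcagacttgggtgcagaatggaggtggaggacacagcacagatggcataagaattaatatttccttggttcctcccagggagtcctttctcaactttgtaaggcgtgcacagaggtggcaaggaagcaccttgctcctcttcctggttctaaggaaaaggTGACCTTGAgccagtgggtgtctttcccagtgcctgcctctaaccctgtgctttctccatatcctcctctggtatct
CKMT1A has 5 listed windows and CKMT1B 2, and the one above has no listed counterpart for CKMT1B. The most alike pair of windows, 1 of each gene, shares an identical run of 275 bases. AGGTCA alone occurred in 3 member windows, 2 of CKMT1A, one of them inside the longer motif, and 1 of CKMT1B. It occurred in 13.8% of all windows.

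The single CKB window held neither of these motifs. It is printed because CKB was the most abundant member, and because 2 promoter elements, looked for after the sequence was seen, lie close together in it. The 250 bases before the RefSeq start, chr14:103522831-103523080 on the minus strand, lie inside the gene span that the files list. The capitals mark 2 copies of CCAAT and the TATAAA between them.
CKB: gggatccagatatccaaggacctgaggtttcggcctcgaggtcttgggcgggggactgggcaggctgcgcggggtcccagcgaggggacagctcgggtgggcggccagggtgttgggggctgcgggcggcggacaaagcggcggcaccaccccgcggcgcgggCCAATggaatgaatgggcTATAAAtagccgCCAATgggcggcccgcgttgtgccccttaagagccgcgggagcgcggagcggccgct
On either strand, CCAAT occurred in 32.0% and TATAAA in 10.7% of all such 250-base stretches. Among the 12 member stretches CCAAT occurred in 5, of CKB, CKM, CKMT1A, CKMT2 and GATM, and TATAAA in 2, of CKB and CKMT2. Both motifs are thus also present before the start of CKMT2. A match of letters is not a binding site, and no binding was measured.

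The control library held 27125084 counts and the PGC-1α library 24334768. Levels are given as CPM, the count divided by the TMM-normalised library size and multiplied by 1000000. The limit that 0 counts allow was set at 3 counts, which stood for 0.110 CPM (control) and 0.124 CPM (PGC-1α). Where a gene is given 2 values, the control comes first. Levels of different genes are compared only as the authors' FPKM, which also divides by gene length. PPARGC1A had 5 and 4654 counts, so the library labelled as overexpressing held far more of its transcript. Of 6 epithelial markers 5 were measured, and KRT8, a keratin of simple epithelia, stood at 3868 and 3899 CPM. Another 2 of them, CDH1 at a log2 ratio of -0.95 and KRT19 at -1.13, were lower in the PGC-1α library.

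Transcripts of 3 of the 5 creatine kinase genes were higher in the PGC-1α library, CKB by the most in amount and CKMT1A and CKMT1B by the most in proportion, while the synthesis genes were level or slightly lower. A gene was taken as measured when its 2 levels averaged 1 CPM or more, which took 6 of the 8 members and left out CKM and CKMT2. Genes called here differed by 2-fold or more in CPM, with a 95% counting interval that excluded a ratio of 1. CKB, CKMT1A and CKMT1B were called higher and 0 members were called lower. Over all 14154 measured genes, 1.75% were called higher and 1.16% lower, and no inference is drawn from setting the members beside these shares. CKMT1A and CKMT1B passed the measured threshold only through the library in which they were high. In these bulk libraries a larger fraction of expressing cells and more RNA per cell cannot be told apart.

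**Figure D1:**
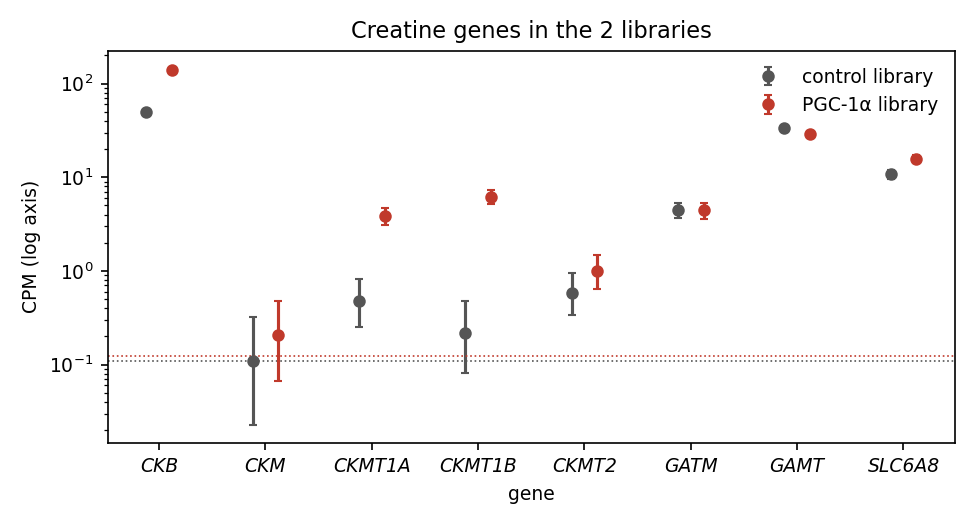
Level of each of the 8 creatine genes in CPM on a log axis, in the control library (grey) and the PGC-1α library (red), with exact Poisson 95% intervals of the count as bars. Dotted lines mark 3 counts in each library, and CKB, CKMT1A and CKMT1B are the genes whose PGC-1α points stand clearly above their control points.

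CKB, the brain-type cytosolic kinase (ENSG00000166165, chr14:103519659-103523111, minus strand), carried most of the signal. It had 1343 control counts and 3383 PGC-1α counts, or 49.2 and 140 CPM. The PGC-1α library was 2.84-fold higher (2.66 to 3.03), a log2 ratio of 1.505 (1.41 to 1.597). By FPKM, CKB moved from above 80.9% of 12354 measured protein-coding genes to above 94.2% of them. The files list no gene that overlaps CKB, and its processed pseudogene CKBP1 had 0 counts in both libraries. Among measured protein-coding genes ranked by ratio CKB was number 77, between SH3D21 at 1.51 and RRAD at 1.49. With 2 libraries such likeness rests on 1 ratio per gene.

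The ubiquitous mitochondrial kinase was low in the control, under 1 CPM, and clearly present in the PGC-1α library. Summed over CKMT1A and CKMT1B it had 19 and 242 counts, or 0.697 and 10.0 CPM. The log2 ratio of the sum was 3.81 (3.17 to 4.60), or 14.01-fold with an interval from 8.99 to 24.3. The width of that interval comes from the 19 control counts. On the log2 scale of the authors' FPKM with a pseudocount of 1 the ratio of the sum was 1.71, since that pseudocount is larger than the control level.

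CKMT1A (ENSG00000223572) had 13 and 93 counts, a log2 ratio of 2.96 (2.17 to 3.97). CKMT1B (ENSG00000237289) had 6 and 149 counts, a log2 ratio of 4.70 (3.65 to 6.28). Both copies were thus higher in the PGC-1α library, with intervals that overlap each other. CKMT1B took 6 of the 19 joint counts in the control, or 31.6% (12.6 to 56.6%, exact binomial interval). It took 149 of 242 in the PGC-1α library, or 61.6% (55.1 to 67.7%). These 2 intervals overlap slightly, and a difference between the shares was not tested. With 4 differing bases between the transcripts, the split also depends on how shared reads were assigned. STRC, which overlaps CKMT1B by 5504 bases on the opposite strand, had 0 counts in both libraries, as did the small RNA gene RNU6-554P within CKMT1B. CKMT1B ranked number 7 by ratio among protein-coding genes, between NEFL at 4.81 and ATP2B3 at 4.47, and CKMT1A number 19, between TFF1 at 3.06 and MPC1 at 2.82.

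The muscle isoforms both averaged under 1 CPM, and CKM stayed at or near the detection limit. CKM, the cytosolic kinase of skeletal and heart muscle (ENSG00000104879, chr19:45306414-45322977, minus strand), had 3 and 5 counts. Its log2 ratio of 0.82 had an interval from -1.45 to 3.596, so a difference was not detectable at this depth. CKMT2, the sarcomeric mitochondrial kinase (ENSG00000131730, chr5:81233285-81266397, plus strand), had 16 and 24 counts, or 0.587 and 0.992 CPM. Its log2 ratio was 0.74 (-0.22 to 1.77), again not separable from no difference, and the upper bound allowed a 3.40-fold higher level. CKMT2 lies wholly inside CKMT2-AS1, an antisense RNA gene with 141 and 145 counts. No strand setting is given, so reads cannot be told apart where exons of the 2 genes overlap, which was not checked. The processed pseudogene AC026436.1, on the opposite strand within CKMT2, had 4 and 10 counts.

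**Figure D2:**
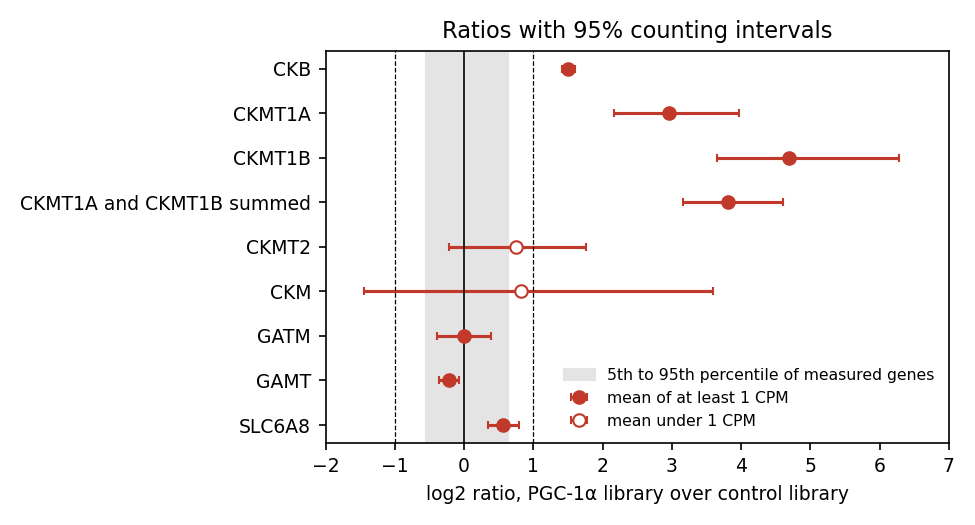
Log2 ratio, PGC-1α over control, for each creatine gene and for the sum of CKMT1A and CKMT1B, with exact 95% counting intervals as bars and dashed lines at 2-fold. The grey band spans the 5th to 95th percentile of measured genes (-0.54 to 0.63); CKB, CKMT1A, CKMT1B and the sum lie to its right with their whole intervals, and the open points are CKM and CKMT2, both under 1 CPM, whose intervals cross 0.

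Within the creatine kinases CKB predominated in both libraries. It made up 97.4% of the summed creatine kinase FPKM of the control and 93.7% of the PGC-1α sum. The share of CKMT1A and CKMT1B together went from 1.14% to 5.39%, and that of CKMT2 from 1.13% to 0.649%. Summed FPKM over the 5 kinase genes was 19.1 and 55.5. The larger part of that difference was CKB, which went from 18.6 to 52.0 FPKM.

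**Figure D3:**
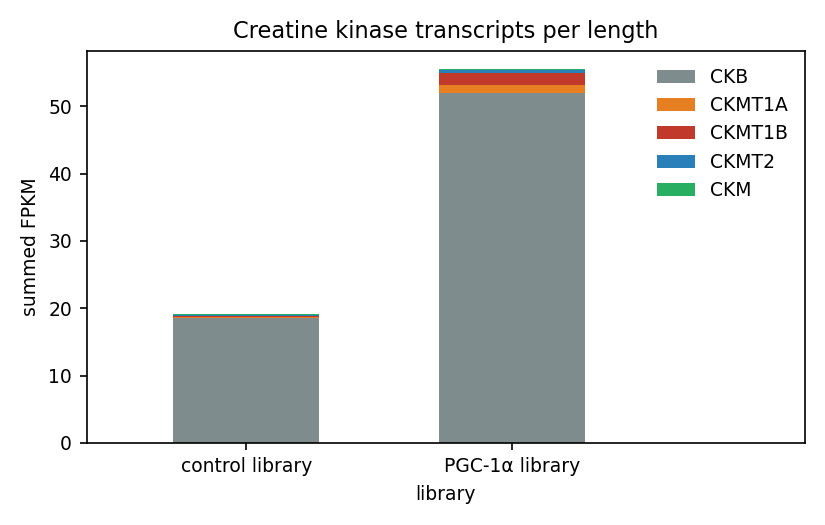
Summed FPKM of the 5 creatine kinase genes in each library, stacked by gene, as deposited by the authors. The bars reach 19.1 (control) and 55.5 (PGC-1α), with CKB as the bulk of both and CKMT1A and CKMT1B visible at the top of the second.

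Neither creatine synthesis gene was higher in the PGC-1α library, unlike CKB, CKMT1A and CKMT1B. GATM, the amidinotransferase of the first step (ENSG00000171766, chr15:45361124-45402327, minus strand), had 121 and 107 counts. That was 4.44 and 4.42 CPM, with a log2 ratio of -0.004 (-0.39 to 0.38), so counting error alone allowed from 0.761-fold to 1.30-fold. The antisense RNA gene AC025580.3, which overlaps GATM by 1424 bases, had 0 counts in both libraries. GAMT, the methyltransferase of the second step (ENSG00000130005, chr19:1397026-1401570, minus strand), had 911 and 697 counts. In CPM it stood at 33.4 and 28.8, with a log2 ratio of -0.21 (-0.36 to -0.07), lower in the PGC-1α library but far under 2-fold. The files list no gene that overlaps GAMT, and its pseudogene GAMTP2 had 0 counts in both libraries.

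SLC6A8, the sodium-dependent creatine transporter of the plasma membrane (ENSG00000130821, chrX:153688099-153696593, plus strand), was moderately higher. It had 292 and 383 counts, or 10.7 and 15.8 CPM. The log2 ratio was 0.56 (0.34 to 0.79), or 1.48-fold (1.27 to 1.73), above 93.9% of measured genes and just under 1.5-fold. PNCK overlaps its first 912 bases on the opposite strand and had 5 and 4 counts. The pseudogene SLC6A10P, a copy on chromosome 16, had 0 counts in both libraries.

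Per gene length, CKB stood highest, followed by GAMT, in both libraries, at 18.6 and 13.99 FPKM in the control and 52.0 and 11.9 in the PGC-1α library. SLC6A8 came next, at 1.96 and 2.86 FPKM. In the control, GATM followed at 0.672 FPKM. Below it stood CKMT2 at 0.216, CKMT1A at 0.154, CKM at 0.0668 and CKMT1B at 0.0638. Each of their counting intervals overlaps that of its neighbour, and their order was not tested. In the PGC-1α library CKMT1B at 1.76 and CKMT1A at 1.23 FPKM stood above GATM at 0.661, and the intervals of the 2 copies overlap slightly. CKMT2 at 0.360 and CKM at 0.124 FPKM came last, with overlapping intervals. Both mitochondrial kinase copies thus stood lower than GATM in the control and higher than it with PGC-1α.

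Genes that work around the creatine system were described with lists that were also drawn up with earlier results of these data known. A list gene was called at 1.5-fold with an interval that excluded a ratio of 1, which took 5.30% of measured genes in the higher and 3.92% in the lower direction. The median log2 ratio of all measured genes was -0.005.

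**Figure D4:**
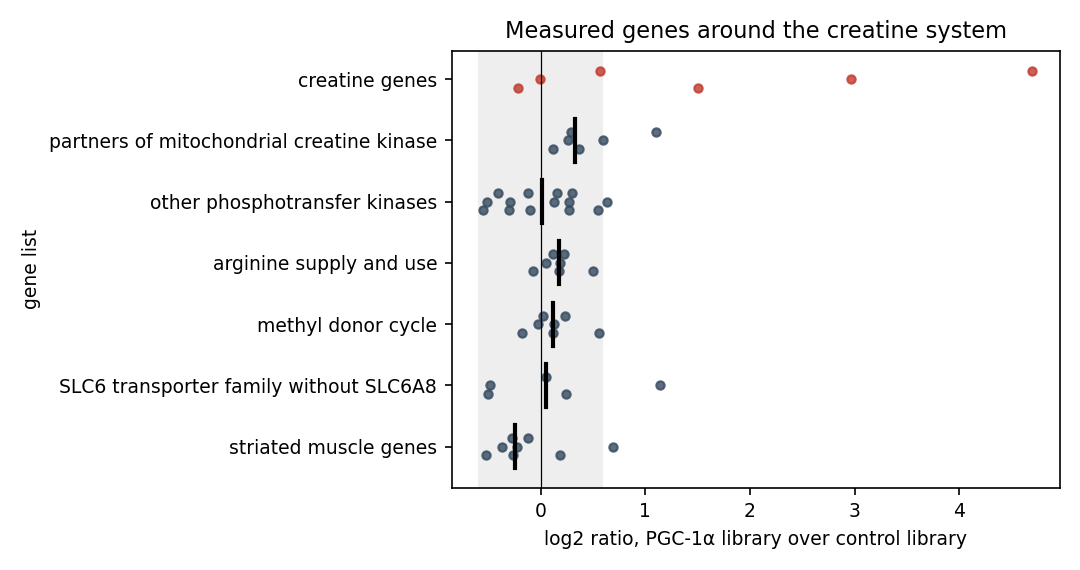
Log2 ratio, PGC-1α over control, for each measured gene of 7 lists, with 1 point per gene, the list median as a vertical bar (none for the creatine genes) and the range within 1.5-fold in grey. CKB, CKMT1A and CKMT1B reach further right than any gene of the other 6 lists, and SLC25A4 and SLC6A17 are the other points past 2-fold.

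Mitochondrial creatine kinase works between the adenine nucleotide carriers of the inner membrane and the VDAC pores of the outer membrane. Of 6 measured genes of these 2 families 2 were called higher and 0 lower, with a median log2 ratio of 0.33. SLC25A4, the carrier isoform of heart and muscle, had 595 and 1136 counts, a log2 ratio of 1.10 (0.96 to 1.25). SLC25A5, a carrier isoform of dividing cells, had 12671 and 16979 counts. The log2 ratio of this gene was 0.59 (0.56 to 0.63). It was past 1.5-fold under TMM scaling, and under DESeq2 size factors or total counts the number of called genes in this list was 1. VDAC3 stood at 0.36 and VDAC2 at 0.29. The carrier gene SLC25A31, known from testis, had 0 counts in both libraries.

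Adenylate and nucleoside diphosphate kinases, which also pass phosphate between nucleotides, showed no common direction. Of 14 measured genes 1 was called higher, 0 lower and 13 neither, with a median log2 ratio of 0.01. The called gene was AK1, the cytosolic adenylate kinase, with 199 and 274 counts, a log2 ratio of 0.63 (0.36 to 0.90). AK4, a mitochondrial adenylate kinase, stood at 0.55, AK5 at -0.55 and the mitochondrial NME4 at -0.51, all under 1.5-fold.

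Genes of arginine supply and use, which GATM draws on, held 7 measured members, of which 0 were called in either direction. Their median log2 ratio was 0.17. AGMAT, annotated as an agmatinase, stood at 0.50 and overlaps DNAJC16, with 521 and 480 counts on the opposite strand. Reads cannot be told apart where exons of both genes overlap, which was not checked. ODC1, the first enzyme of polyamine synthesis, stood at 0.22, the ornithine aminotransferase gene OAT at 0.18 and the argininosuccinate synthase gene ASS1 at 0.17. The most expressed were ODC1, at 148 and 172 CPM, and the arginine carrier gene SLC7A1, at 108 and 117 CPM.

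The methyl donor cycle, which supplies GAMT, had 7 measured genes with 0 called and a median log2 ratio of 0.12. NNMT, which spends methyl groups on nicotinamide, had 1471 and 1925 counts, with a log2 ratio of 0.56 (0.46 to 0.66). MAT2A, which makes S-adenosylmethionine, stood at -0.18, the methionine synthase gene MTR at 0.24 and MAT2B at 0.13. Per gene length the most expressed were MAT2A, at 92.3 and 80.6 FPKM, and AHCY, at 83.5 and 83.8 FPKM.

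Relatives of SLC6A8 in the SLC6 transporter family did not share one direction. Of 18 relatives 5 were measured, 1 was called higher and 0 lower, with a median log2 ratio of 0.06. SLC6A17, a vesicular amino acid transporter of neurons, had 170 and 334 counts, a log2 ratio of 1.14 (0.88 to 1.42). SLC6A15 stood at -0.50, SLC6A16 at -0.48 and SLC6A6, the taurine transporter, at 0.24.

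Muscle genes were described beside CKM and CKMT2. Of 27 listed, 8 were measured and 9 had 0 counts in both libraries, among them the muscle regulators MYOD1 and MYOG. The list's summed level was 161 and 141 CPM, of which TNNT1 alone held 118 and 97.2 CPM. The median log2 ratio of the measured genes was -0.24. MB, which encodes myoglobin, was the 1 called gene, with 140 and 201 counts. Its log2 ratio was 0.69 (0.38 to 1.02). MYOM2, an M-band protein gene, stood at -0.52 and TNNT1, a troponin T of slow muscle, at -0.27.

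Few other genes tied to creatine were measured. ASB9, which directs ubiquitination of CKB, was the 1 measured gene of 4, with 700 and 511 counts and a log2 ratio of -0.28 (-0.45 to -0.12). ALPL, a phosphatase reported to act on phosphocreatine in mouse thermogenic fat, had 13 counts in each library. SLC16A12, a creatine carrier, had 6 and 7 counts. Among 7 thermogenic fat genes only DIO2, a thyroid hormone deiodinase, was measured, and it was lower, at 98.9 and 49.4 CPM with a log2 ratio of -1.002 (-1.10 to -0.90). UCP1 had 2 counts in each library.

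Markers of other cell types are given as summed CPM, which compares the 2 libraries and not the lists with each other. Of 6 neuronal markers 5 were measured, and their summed level was 84.0 and 61.9 CPM, with STMN2 at 0 counts in both libraries. SYT1 at -0.65 and MAP2 at -1.65 were called lower, 3 were called neither and 0 were called higher. The neurofilament gene NEFL, which is outside this list, was higher, with 129 and 3225 counts. Fibroblast markers summed to 14.9 and 15.8 CPM, endothelial markers to 9.50 and 8.68 CPM and immune markers to 6.20 and 3.64 CPM. Most of each sum came from 1 gene, THY1 at 12.0 and 12.7 CPM, ESAM at 9.35 and 8.51 and CD14 at 6.01 and 3.39. CD14 at -0.82 was the 1 immune marker measured and was called lower. The epithelial markers summed to 5361 and 5250 CPM, with CDH1 at -0.95 and KRT19 at -1.13 called lower. The part of these levels in the creatine gene results was not tested.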

How the data were processed

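RNA-seq gene tables of 2 A549 libraries were used, 1 per group, grouped by the genotype in the labels. Per the file headers, the deposited tables hold a raw count per Ensembl gene, and the authors' FPKM stands in a separate table per library. The submitters' processing notes list Bowtie2 2.0.6 and TopHat2 2.0.9, and also Cufflinks 2.1.1 and Cuffdiff 2.1.1, with no role. The counting program, strand setting, genome build and annotation are not stated. Gene start and end equalled GENCODE release 29 (GRCh38) for 97.6% of 58039 shared gene IDs and for all 8 members. The authors' FPKM values were a rescaling of the deposited counts, with 1 library size behind every value above 0 (relative tolerance 1e-06).

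Counts were scaled with TMM (edgeR 4.0.16, R 4.3.3). Log2 ratios, PGC-1α over control, used 0.5 added to each count. Ratios carry exact 95% Clopper-Pearson intervals of the split of the 2 counts, and levels exact Poisson intervals. Both cover counting error only, and with 1 library per group they leave out variation between cultures. The counts are of reads, as no molecular identifiers were used to count molecules. The code was tested on simulated data. With 1 library per group edgeR's quasi-likelihood test has no residual degrees of freedom, so no p-value is given.

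The members, the lists and the rule for named genes were chosen with earlier results of these data known. Named genes were the members, PPARGC1A, copies and overlapping genes of members, and the protein-coding genes next in rank to members past 2-fold. In each list up to 4 measured genes with the largest ratios whose interval excluded 0 were added, with all called genes where these were 5 or fewer and the most expressed where none was called. The genes ALPL, SLC16A12, UCP1, SLC25A31, MYOD1, MYOG and the markers were named after their values were seen, and the CCAAT and TATAAA motifs were added after the CKB sequence was seen. Alternatives were DESeq2 1.42.0 size factors, total counts, 2 added to each count, FPKM with pseudocounts of 0.1 and 1, other filters and sums over copies. Scripts used Python 3.11.15, scipy 1.17.1, pandas 2.3.3, numpy 2.4.6, Biopython 1.88 and matplotlib 3.10.9.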

Additional observations from a re-analysis of the deposited data

How the results depend on the processing

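Under DESeq2 size factors, total counts, 2 added to each count and, where listed, sums with copies, the log2 ratio of each creatine gene stayed inside its own counting interval. On the FPKM scale a pseudocount of 1 gave log2 ratios of 0.95 for CKMT1A, 1.38 for CKMT1B and 1.71 for their sum, and a pseudocount of 0.1 gave 3.51 for CKMT1B, since these pseudocounts exceed the control levels. When a mean of 5 CPM was required 1 creatine gene was called higher, because CKMT1A and CKMT1B fell under that filter. Over all genes the calls were 789 higher and 486 lower with no filter, 104 and 53 when 5 CPM was required, and 750 and 555 at 1.5-fold. Among partners of mitochondrial creatine kinase the called genes numbered 1 under DESeq2 size factors and 1 under total counts. With no filter on low counts 2 striated muscle genes were called higher, and the medians were 0.085 for other creatine-linked genes and -0.56 for thermogenic fat genes. Of the other results for lists, 115 were within the range of the main value. For the medians of several lists that range ran from the lowest to the highest gene, so it was wide. Inside it, the median of the SLC6A8 relatives was 0.06 in the main setting and -0.49 with no filter. That of striated muscle genes was -0.24 in the main setting and 0.03 when 5 CPM was required. No paired analysis was possible because each group has 1 library, and for the same reason no library could be left out. Depth limited CKM, CKMT2 and the control levels of CKMT1A and CKMT1B, which rest on 3 to 24 counts.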

Other observations

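Genes that neighbour CKMT1A and CKMT1B on chromosome 15 were looked at after their values were seen, and are given as values only. Upstream of CKMT1B, MAP1A had 138 control counts and 195 PGC-1α counts, a log2 ratio of 0.67 (0.35 to 1.00), and PPIP5K1 had 169 and 200, a log2 ratio of 0.41 (0.11 to 0.72). Between the copies, CATSPER2 had 27 and 46 counts, a log2 ratio of 0.93 (0.22 to 1.68). The pseudogene AC011330.1, which ends 8547 bases before CKMT1A, went the other way, with 59 and 11 counts and a log2 ratio of -2.199 (-3.33 to -1.31). It overlaps CATSPER2 on the same strand, and how reads shared by the 2 genes were assigned is not stated. STRCP1, 266 bases beyond the end of CKMT1A, had 2 counts in each library. Further on, the pseudogene CATSPER2P1 had 35 and 34 counts, a log2 ratio of 0.13 (-0.59 to 0.85). Next to CKB, the antisense RNA gene AL133367.1 had 30 and 50 counts, a log2 ratio of 0.90 (0.23 to 1.61), and TRMT61A had 1211 and 1126, a log2 ratio of 0.07.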
